A study of Mus musculus with 6 samples.

Results

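The genes of the mitochondrial protein import machinery were examined in HSCs sorted from mouse BM. Members were rows whose symbol begins with Tomm or Timm, together with Samm50, Mtx1, Mtx2, Mtx3, Pam16, Grpel1, Grpel2, Chchd4, Gfer, Pmpca, Pmpcb, Immp1l and Immp2l, and they came to 38 of 21878 gene rows. RNA-seq libraries came from wild-type mice of 2 groups, 3 control libraries from vehicle-treated mice and 3 libraries from mice given a single subcutaneous dose of recombinant mouse IGF1, 1 day before the cells were taken. IGF1 is insulin-like growth factor 1, which the study examines as a signal from megakaryocytes to HSCs. HSCs were sorted as CD34-Flk2-Lineage-Sca1+c-Kit+ cells. The sample labels describe the extraction as one from control or IR (irradiated) mice but give the treatment as IGF1, and IGF1 was taken here. The labels do not say whether replicates of a group were separate mice, so p-values measure the spread between these libraries, which may be technical.

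Nearly all mitochondrial proteins are encoded in the nucleus, made in the cytosol and imported. The TOM complex of the outer membrane is the common entry gate, and the SAM complex inserts barrel-shaped proteins into that membrane. Small TIM chaperones and a disulfide relay work in the intermembrane space. In the inner membrane, TIM22 inserts carrier proteins, whereas TIM23 and its PAM motor draw proteins with a presequence into the matrix, where a processing peptidase cuts the presequence off. HSCs are known for low mitochondrial respiration at rest and for an increase of it on activation.

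Promoter sequence is shown for 5 genes, picked by hand and each with a motif, because members moved in opposite directions while several carried the same short motif before their start. Of these 5 only Pmpca was among the members called below, and Tomm6, also called, is not shown. Each line holds the 100 bases before the RefSeq start site (build GRCm38.p6), on the strand of the gene, at chr2:26389248-26389347 for Pmpca, chr5:21737060-21737159 for Pmpcb, chr16:57121614-57121713 for Tomm70a, chr9:50603801-50603900 for Timm8b and chr16:4624947-4625046 (minus strand) for Pam16. Capitals mark the ETS-type motif CCGGAAG on either strand, and in Pam16 the NRF1 motif (GCGCA and GCGC with 1 base between them).
Pmpca: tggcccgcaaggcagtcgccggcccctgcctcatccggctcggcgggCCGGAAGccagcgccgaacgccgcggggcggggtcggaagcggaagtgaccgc
Pmpcb: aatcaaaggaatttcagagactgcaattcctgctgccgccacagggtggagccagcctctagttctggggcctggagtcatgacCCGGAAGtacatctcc
Tomm70a: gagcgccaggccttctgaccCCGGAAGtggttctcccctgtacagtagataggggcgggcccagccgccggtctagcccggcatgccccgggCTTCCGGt
Timm8b: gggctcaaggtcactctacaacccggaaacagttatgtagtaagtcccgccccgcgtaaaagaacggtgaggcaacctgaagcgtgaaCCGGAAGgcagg
Pam16: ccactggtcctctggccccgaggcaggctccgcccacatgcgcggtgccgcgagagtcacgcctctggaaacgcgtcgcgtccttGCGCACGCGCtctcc

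The ETS-type motif was found on either strand in the 300-base RefSeq promoters of 15 of the 34 members that have one, 44.1%. It was found in 8.86% of all 32851 promoters and in those of 22.3% of 8326 genes tested. The NRF1 motif was found in 4 members, Tomm20, Timm8b, Chchd4 and Pam16, which is 11.8% against 12.6% of the genes tested. The YY1 motif AAGATGGCG was also found in 4 members, Mtx1, Mtx3, Timm50 and Immp1l, against 4.07% of the genes tested. The members with the ETS-type motif included Pmpca, Pmpcb and Tomm70a, whose values were lower in the IGF1 libraries, and Timm8b, Mtx1 and Grpel1, whose log2 fold changes were above 0. Tomm6 held none of the 3 motifs. These are matches of letters and no measurement of binding.

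Values were taken as FPKM, that is, fragments scaled to gene length and library depth. Whole reads recovered from their steps came to between 10298069 and 15090863 per library, of which between 50197 and 57868 fell on members. Read and FPKM totals differed between libraries, and members took 0.381%, 0.509% and 0.382% of reads across the controls, against 0.493%, 0.487% and 0.495% with IGF1. Here and below, values of the libraries of a group stand in the order of replicates 1, 2 and 3. Control replicate 2 stood apart from the other controls, and its values go against its label. Over all genes with at least 20 reads in a pair, chi-squared per gene was 220 to 222 between it and the other controls, 23.5 to 26.6 between it and the IGF1 libraries and 1.51 between control replicates 1 and 3. Whether the label is right was not tested, and every fold change and call with all 6 libraries rests on it. Among 36 members with at least 20 reads in a pair of libraries, 0 differed by over 2-fold between control replicates 1 and 3 or between any IGF1 libraries, whereas 11 and 9 did so between control replicate 2 and control replicates 1 and 3, and 1 between control replicate 2 and each IGF1 library. Between control replicates 1 and 3 and the IGF1 libraries, 10 or 11 members did. Of all genes, 4108 of 12012 and 4112 of 12007 differed so between control replicate 2 and control replicates 1 and 3, and 128 of 12016 between those 2. Between control replicate 2 and the IGF1 libraries, 845 of 11866 to 919 of 11914 genes did. Between control replicates 1 and 3 and the IGF1 libraries, 5040 of 12043 to 5172 of 12092 genes did. Results are therefore also given without control replicate 2 where that changes the calls. Since only bulk RNA was measured, fewer cells of a type and less RNA per cell cannot be told apart.

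The cell label was checked against marker genes. Of the HSC markers, Kit (24.2 to 105 FPKM), Ly6a (219 to 615 FPKM) and Procr (11.5 to 18.7 FPKM) were clearly present, Slamf1 was at 0.736 to 2.41 FPKM and Hoxb5 at 0.279 to 0.691 FPKM, and 0 of the 8 tested were called. Transcripts of the genes for CD34 and Flk2, on which the cells were sorted as negative, were abundant in every library. Their groups did not overlap, but neither gene was called with all 6 libraries. Cd34 measured 640.0, 265 and 634 FPKM across the controls, against 231, 238 and 230.2 FPKM with IGF1, without overlap (-1.03, adjusted p = 0.0714 from limma), and was called lower without control replicate 2 (-1.45). Flt3 measured 117, 172 and 117 FPKM across the controls, against 187, 188 and 183 FPKM with IGF1, also without overlap (0.48, adjusted p = 0.0783), or 0.67 without control replicate 2. Of 8 neutrophil and monocyte markers tested among 10 listed, 4 were called lower (Ngp, Camp, S100a8 and S100a9). Elane lay in the other direction, at 92.8, 576 and 92.4 FPKM across the controls, against 709, 696 and 692 FPKM with IGF1 (2.03, adjusted p = 0.0726), and was called higher without control replicate 2 (2.90). The sum of the list, 2273 to 2442 FPKM across the controls, against 2442 to 2449 FPKM with IGF1, was mostly Mpo (1613 to 1705 FPKM in the 6 libraries). B cell markers (5 listed, 4 tested) summed to 91.2, 292 and 89.9 FPKM across the controls, against 293 to 309 FPKM with IGF1, and 0 of the 4 were called. The T and NK cell list (4 listed, 1 tested) summed to 357 to 777 FPKM across the controls, against 768 to 787 FPKM with IGF1, almost wholly Nkg7, and Cd3e was listed at 0 in 2 libraries. The erythroid list (6 listed, 3 tested) summed to 14.8 to 68.5 FPKM across the controls, against 22.2 to 26.3 FPKM with IGF1, with 0 called. The megakaryocyte list (5 listed, 4 tested) summed to 51.8 to 74.5 FPKM across the controls, against 93.1 to 104 FPKM with IGF1. Gp1bb was called higher, and without control replicate 2 so were Pf4 (2.08) and Gp9 (1.13). Without control replicate 2, 3 HSC markers were called lower, and 5 neutrophil and monocyte markers lower and 1 higher. Then 3 B cell markers, 1 of the T and NK cell list and 3 megakaryocyte markers were called higher, and 0 erythroid ones in either direction. Of all genes 12.3% were then called higher and 20.6% lower. The part of these cells in the values of the import genes was not tested.

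The import genes were well expressed. Of the 38 members, 35 reached 1 FPKM in at least 3 libraries and were tested, with a mean between 8.33 and 399 FPKM and a median of 59.7 FPKM. Tomm20l, a homologue of the receptor Tomm20, had 1 read in 1 control library, as did Timm8a2, a homologue of Timm8a1. Mtx3, a metaxin, had 0.341, 0.947 and 0.381 FPKM across the controls, against 0.793, 0.929 and 0.858 FPKM with IGF1, below the level for testing. The most abundant members were Tomm5 and Timm13, and Timmdc1 and Grpel2 were among the least. The plot of levels by library shows all members with a read in every library.

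**Figure D1:**
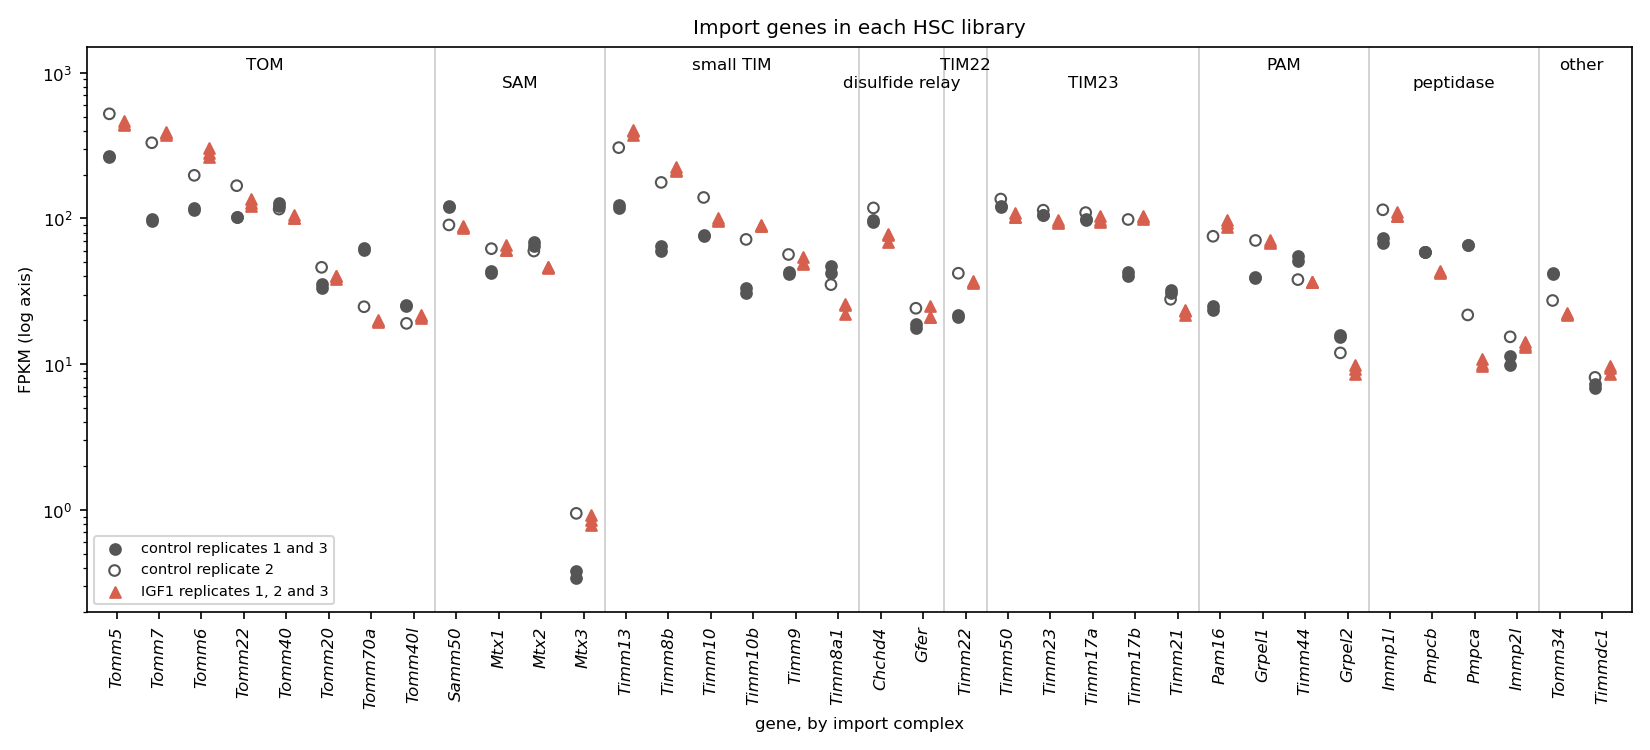
FPKM (log axis) of 36 import genes in each HSC library, grouped by complex; filled circles are control replicates 1 and 3, open circles control replicate 2 and triangles the 3 IGF1 libraries. Control replicates 1 and 3 lie close together and so do the IGF1 libraries, whereas control replicate 2 lies nearer the IGF1 libraries for genes such as Tomm7, Timm17b, Pam16, Tomm70a and Pmpca.

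Import genes moved in both directions between HSCs of IGF1-treated and of control mice. With limma on log2(FPKM + 1) and the thresholds of the study, an over 2-fold change with an adjusted p (Benjamini-Hochberg, over 10449 genes) under 0.05, 1 member was called higher, the TOM subunit Tomm6, and 1 lower, Pmpca of the matrix processing peptidase. Of all genes tested, 1.98% were called higher and 4.63% lower, so 2 of 35 members is close to the background of 6.61%. By the adjusted p alone Tomm6 was higher and 7 members were lower, namely Pmpca, Pmpcb, Timm8a1, Mtx2, Grpel2, Timm21 and Tomm34, against 6.26% of all genes higher and 14.1% lower. The groups did not overlap in 8 members that were higher and 14 that were lower, against 21.9% and 37.4% of all genes (59.4% in either direction). The median log2 fold change of the members was 0.07 and that of all genes tested -0.18, with 19 members above 0 and 16 below, while 40.4% of all genes lay above 0.

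Control replicate 2 set the number of calls. Without it 7 members were called higher (Tomm6, Tomm7, Timm8b, Timm10b, Timm13, Timm17b and Pam16) and 2 lower (Pmpca and Tomm70a), against 12.3% and 20.6% of all genes (32.9% in either direction). By the adjusted p alone 19 were then higher and 15 lower, every member tested but Timm17a, as were 34.9% and 53.6% of all genes (88.5% in either direction). The median of the members was 0.26 against -0.24 for all genes. Without any other single library 0 members and 0 of all 10449 genes were called by limma, with 9 to 12 of the 35 members and 28.5% to 30.7% of all genes at an unadjusted p under 0.05. With all libraries the largest change above 0 was that of Tomm7 in TOM (1.38) and the largest below 0 that of Pmpca (-2.06). The next below 0, Tomm70a (-1.16), also belongs to TOM, as the plot of fold changes shows.

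**Figure D2:**
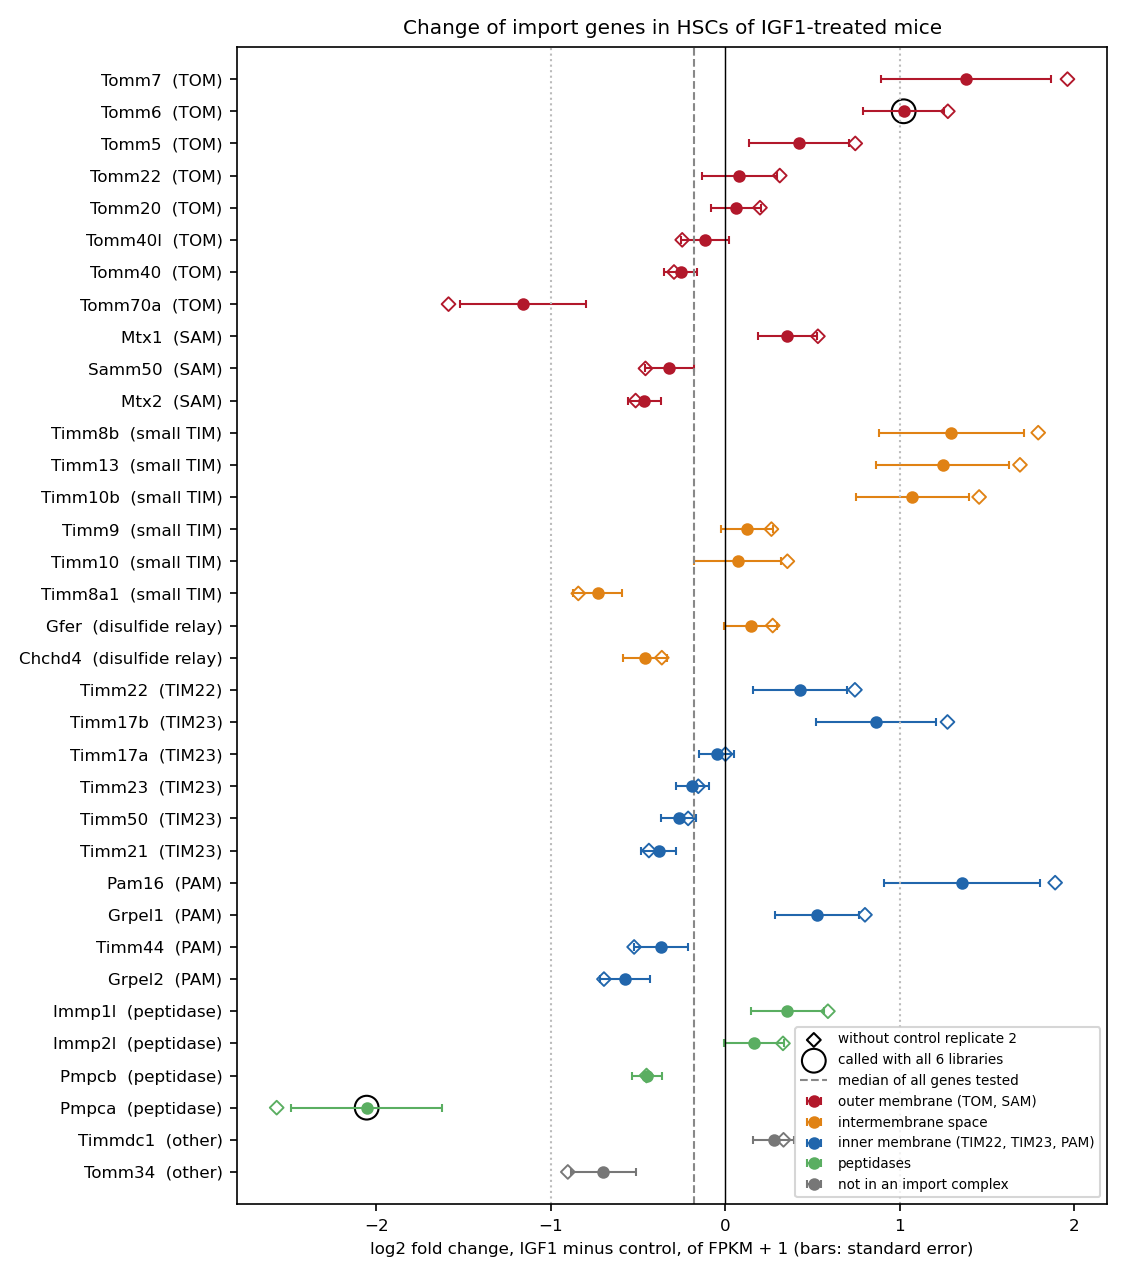
Log2 fold change (IGF1 minus control, of FPKM + 1) of the 35 import genes tested, with the standard error from limma as bars and the value without control replicate 2 as open diamonds; the dashed line is the median of all genes tested (-0.18) and the dotted lines mark a 2-fold change. Tomm6 and Pmpca are ringed as called, and the genes on the right, Tomm7, Pam16, Timm8b and Timm13, move further right without control replicate 2.

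The TOM complex split by subunit. Tomm6, a small subunit that helps to assemble the complex, was at 115, 197 and 118 FPKM across the controls, against 303, 264 and 283 FPKM with IGF1. All IGF1 libraries were above all controls, and the log2 fold change was 1.02 (standard error 0.23, adjusted p = 0.0427 from limma). The call ended with quantile normalization (0.85) and with trends on length and GC content removed (0.36), in both cases because the fold change fell under 2. Tomm6 lies at chr17:47686646-47688386 on the minus strand (GRCm38), and 76.0% of its exonic bases are also annotated to the gene model Gm21981 on the same strand, so that part of its reads cannot be assigned to Tomm6 alone.

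Tomm7, another small subunit, which regulates the assembly of TOM, was at 98.8 and 96.5 FPKM in control replicates 1 and 3, at 330.4 FPKM in control replicate 2 and at 391, 383 and 375 FPKM in the IGF1 libraries. The groups did not overlap, but control replicate 2 was close to the IGF1 libraries, and the log2 fold change of 1.38 (standard error 0.49) did not pass (adjusted p = 0.0718). Tomm5, the third small subunit and the most abundant member of all, had 264, 522 and 269 FPKM across the controls, against 436, 462 and 442 FPKM with IGF1. Here control replicate 2 was the highest of all libraries and the groups overlapped (0.42, adjusted p = 0.254). This value turned to -0.12 with trends on length and GC content removed.

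The receptors of TOM behaved unlike each other. Tomm70a, the receptor for carrier precursors that docks cytosolic chaperones, was at 61, 24.8 and 62.3 FPKM across the controls, against 19.6, 20.2 and 19.8 FPKM with IGF1. All IGF1 libraries were below all controls, with control replicate 2 near them, and the log2 fold change was -1.16 (standard error 0.36, adjusted p = 0.0586), or -1.59 without control replicate 2 (adjusted p = 2.26e-10) and -0.74 with trends on transcript length and GC content removed. Tomm20, the receptor for presequences, whose protein is widely stained to mark mitochondria, had 35.6, 46.2 and 33.3 FPKM across the controls, against 40.3, 38.2 and 40.5 FPKM with IGF1. Its groups overlapped and it did not pass the test (0.06, standard error 0.14, adjusted p = 0.733), and 4 other genes hold near-identical stretches to which its reads could be split.

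Tomm40, the channel of the complex, had 123, 116 and 128 FPKM across the controls, against 105, 100 and 101 FPKM with IGF1, with no overlap and a log2 fold change of -0.26 (adjusted p = 0.0802). Its homologue Tomm40l was at 25.6, 19.0 and 25.1 FPKM across the controls, against 21.3, 21.7 and 20.6 FPKM with IGF1. The groups overlapped (-0.12, adjusted p = 0.496), and 64.3% of the exonic bases of Tomm40l are shared with Nr1i3 on the opposite strand, which had at most 0.169 FPKM in any library. Tomm22, the central receptor and organiser, was tested too and lay at 0.08 (adjusted p = 0.765).

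The SAM complex also split. Samm50, the barrel that inserts other barrel proteins, was at 119.8, 90.2 and 121 FPKM across the controls, against 88.9, 86.4 and 86.9 FPKM with IGF1. The groups did not overlap, but control replicate 2 lay just above the IGF1 libraries (-0.32, adjusted p = 0.112). Mtx2, a metaxin on the cytosolic side of SAM, had 64.3, 59.7 and 68.4 FPKM across the controls, against 46.6, 45.6 and 46.2 FPKM with IGF1, and in this gene all 3 controls stood together. The change of -0.46 (standard error 0.10) passed the adjusted p of limma (0.038) but not the fold threshold. Its partner Mtx1 had 43.4, 62.0 and 42.1 FPKM across the controls, against 60.7, 60.4 and 65.6 FPKM with IGF1, where control replicate 2 fell among the IGF1 libraries (0.36, adjusted p = 0.129). Mtx1 and Mtx2 both changed sign with trends on transcript length and GC content removed (-0.18 and 0.18). With implied length in its place only Mtx1 did (-0.12), and Mtx2 was at -0.41.

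The small TIM chaperones, which escort hydrophobic precursors across the intermembrane space, had the highest median of any complex with more than 1 member tested, 0.60, or 0.90 without control replicate 2. None of the 6 tested was called with all libraries. Timm13 had 124, 306 and 118 FPKM across the controls, against 404, 372 and 400.0 FPKM with IGF1. All IGF1 libraries were above all controls (1.24, standard error 0.38, adjusted p = 0.0571). Timm8b was at 64.3, 177 and 60.0 FPKM across the controls, against 212, 226 and 215 FPKM with IGF1, again with no overlap and with control replicate 2 close to the IGF1 libraries (1.30, standard error 0.42, adjusted p = 0.0616). Without control replicate 2 the changes of Timm13 and Timm8b were 1.69 and 1.79, and both were called. With trends on transcript length and GC content removed they were 0.61 and 0.41.

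Timm8a1, the mouse counterpart of the gene mutated in human deafness-dystonia syndrome and the usual partner of Timm13, moved the other way. It had 42.0, 35.1 and 47.0 FPKM across the controls, against 22, 25.4 and 25.8 FPKM with IGF1. Every IGF1 library was below every control, and the log2 fold change of -0.73 (standard error 0.14) passed the adjusted p (0.0367 from limma) but not the fold threshold. Of the other small TIM genes, Timm10b, which sits at the TIM22 complex, did not overlap between groups and was at 1.07 (adjusted p = 0.0568), whereas Timm9 and Timm10, which form the main chaperone ring, overlapped and were at 0.12 and 0.07.

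The disulfide relay has Chchd4, the oxidoreductase that folds incoming proteins with cysteine pairs, and Gfer, the oxidase that recharges it. Chchd4 was at 97.9, 118 and 94.5 FPKM across the controls, against 69.3, 76.8 and 77.7 FPKM with IGF1. Here control replicate 2 was the highest library, on the far side from the IGF1 libraries, the groups did not overlap, and the log2 fold change of -0.46 (standard error 0.13) just missed the adjusted p (0.0503). With trends on transcript length and GC content removed it was 0.10. With implied length in its place it was -0.50 and passed the adjusted p alone (0.0286 from limma). Gfer had 18.9, 24.2 and 17.8 FPKM across the controls, against 24.9, 21.2 and 21.2 FPKM with IGF1, and its groups overlapped (0.14, adjusted p = 0.434).

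In the inner membrane, TIM23 is the presequence translocase. Timm50, its receptor, was at 119.7, 136 and 122 FPKM across the controls, against 102, 103 and 108 FPKM with IGF1. The groups did not overlap, and the log2 fold change of -0.27 did not pass (adjusted p = 0.0824). With trends on transcript length and GC content removed it was -0.73 and passed the adjusted p alone (0.0312 from limma). Timm21, which links TIM23 to the TOM side and to the respiratory chain, had 32.1, 27.9 and 30.7 FPKM across the controls, against 21.8, 23.3 and 23.6 FPKM with IGF1, and passed the adjusted p alone (-0.38, standard error 0.10, adjusted p = 0.0485 from limma), although it was 0.24 with trends on transcript length and GC content removed. The channel gene Timm23 lay at -0.19 (adjusted p = 0.139), and 6 other genes hold near-identical stretches of it.

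The paralogous channel partners Timm17a and Timm17b differed. Timm17a had 98.3, 109.6 and 98.7 FPKM across the controls, against 94.3, 97.8 and 104 FPKM with IGF1, with groups that overlapped and a log2 fold change of -0.05 (adjusted p = 0.686). Timm17b was at 40.5, 98.3 and 42.6 FPKM across the controls, against 103, 99 and 103 FPKM with IGF1. Control replicate 2 was just below the lowest IGF1 library (0.86, standard error 0.34, adjusted p = 0.0886), and without it Timm17b was called (1.27). Timm22, the channel of the carrier translocase, had 21.1, 42.1 and 21.8 FPKM across the controls, against 37.1, 36.0 and 36.3 FPKM with IGF1, with control replicate 2 above them all (0.43, adjusted p = 0.22).

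The PAM motor pulls the chain into the matrix. Pam16, which restrains the J-protein of the motor, had 25.0, 75.4 and 23.4 FPKM across the controls, against 92.9, 96.8 and 87.5 FPKM with IGF1. All IGF1 libraries were above all controls, and the log2 fold change was 1.36 (standard error 0.45, adjusted p = 0.0634), or 1.89 without control replicate 2. The nucleotide exchange factors of the motor split: Grpel1 was at 39.7, 70.6 and 39.2 FPKM across the controls, against 68.6, 68.2 and 71.6 FPKM with IGF1 (0.53, adjusted p = 0.118). Grpel2 was at 15.4, 12 and 15.7 FPKM across the controls, against 9.21, 9.91 and 8.61 FPKM with IGF1, which did not overlap (-0.58, standard error 0.14, adjusted p = 0.0459). Grpel1 overlapped and Grpel2 passed the adjusted p alone, although it was 0.015 with trends on implied length and GC content removed. The remaining member, Timm44, which tethers the motor to the channel, was at -0.37 (adjusted p = 0.0996).

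The widest change of any member was in the processing peptidase. Pmpca, the subunit that binds presequences, lies at chr2:26389339-26397122 on the plus strand (GRCm38) and had 65.6, 21.8 and 65.5 FPKM in control replicates 1, 2 and 3. In IGF1 replicates 1, 2 and 3 it had 9.71, 10.8 and 10.1 FPKM. Control replicate 2 was intermediate, and all IGF1 libraries were below all controls. The log2 fold change was -2.06 (standard error 0.43, adjusted p = 0.0389 from limma), or -2.57 without control replicate 2. It remained called with every scaling and with the length and GC trends removed, where it was between -1.91 and -1.54. Of its exonic bases 20.4% are shared with Inpp5e on the opposite strand. Inpp5e was at 7.61, 2.06 and 7.53 FPKM across the controls, against 4.57, 3.87 and 3.99 FPKM with IGF1, and whether reads were counted by strand is not stated.

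Pmpcb, the catalytic subunit that pairs with Pmpca, had 58.5, 58.5 and 59.2 FPKM across the controls, against 42.9, 42.0 and 43.3 FPKM with IGF1. This was the member with the tightest controls, control replicate 2 included, and it passed the adjusted p (-0.45, standard error 0.08, adjusted p = 0.0363) but not the fold threshold. With trends on transcript length and GC content removed it was 0.14, and with implied length in its place -0.18. The inner membrane peptidase genes overlapped between groups. Immp1l had 73.2, 115 and 67.7 FPKM across the controls, against 104, 112 and 104 FPKM with IGF1 (0.36, adjusted p = 0.199). Immp2l had 9.88, 15.4 and 11.5 FPKM across the controls, against 13.2, 13.6 and 14.1 FPKM with IGF1 (0.17, adjusted p = 0.436).

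A pair of members carry the names without being subunits of an import complex. Tomm34, a cytosolic cochaperone of Hsp70 and Hsp90, was lower by the adjusted p alone (-0.70, standard error 0.19, adjusted p = 0.0487). Timmdc1, an assembly factor of respiratory complex I, lay at 0.28 (adjusted p = 0.103).

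Outer and inner membrane complexes were then set side by side. The 11 outer membrane members tested (TOM and SAM) had a median log2 fold change of 0.06 and ranged from -1.16 to 1.38. The 10 inner membrane members (TIM22, TIM23 and PAM) had a median of -0.12 and ranged from -0.58 to 1.36. The medians differed by 0.18. Outer minus inner median deviation in single libraries varied between replicates of a group with an SD of 0.0583. That SD leaves out the spread between genes and is not an error of the 0.18. The inner membrane median itself was above 0 with 75th percentile scaling (0.15) and TMM scaling (0.035), which moved the median of all genes to 0.06 and -0.04. The order of the membranes depended on the settings. The difference turned to -0.17 with trends on transcript length and GC content removed, and to -0.10 when Timm10b, Immp1l and Immp2l were counted as inner membrane. Summed over members, outer membrane transcripts came to 1053, 1637 and 1067 FPKM across the controls, against 1634, 1619 and 1609 FPKM with IGF1, which overlap with control replicate 2. Inner membrane transcripts came to 553, 724 and 551 FPKM and to 659, 665 and 677 FPKM. The range within TOM (-1.16 to 1.38) and within PAM (-0.58 to 1.36) was wider than the difference between the membranes. Medians were 0.13 for the 8 intermembrane space members and -0.14 for the 4 peptidases.

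Ratios between partner genes within a library do not depend on its scaling factor. The FPKM of Pmpca was 1.12, 0.372 and 1.10 times that of Pmpcb across the controls, against 0.226, 0.257 and 0.233 times with IGF1. Transcripts for the partner subunits of this enzyme were thus near equal in control replicates 1 and 3 and unequal in the other libraries. The ratio of Timm8a1 to Timm8b was 0.654, 0.199 and 0.783 across the controls, against 0.104, 0.112 and 0.120 with IGF1. That of Timm17a to Timm17b was 2.43, 1.11 and 2.32 across the controls, against 0.916, 0.988 and 1.0 with IGF1. In these pairs every IGF1 library was below every control.

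The ratio of Grpel1 to Grpel2 was 2.58, 5.91 and 2.49 across the controls, against 7.45, 6.89 and 8.31 with IGF1. That of Mtx1 to Mtx2 was 0.675, 1.04 and 0.616 across the controls, against 1.30, 1.32 and 1.42 with IGF1, also without overlap. The groups overlapped for Tomm40 to Tomm40l (4.80 to 6.08 across the controls, against 4.61 to 4.94 with IGF1) and for Immp1l to Immp2l (5.91 to 7.44 and 7.34 to 8.20). In each of the 5 pairs without overlap, control replicate 2 was intermediate, as the plot of ratios shows. These ratios were not tested.

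**Figure D3:**
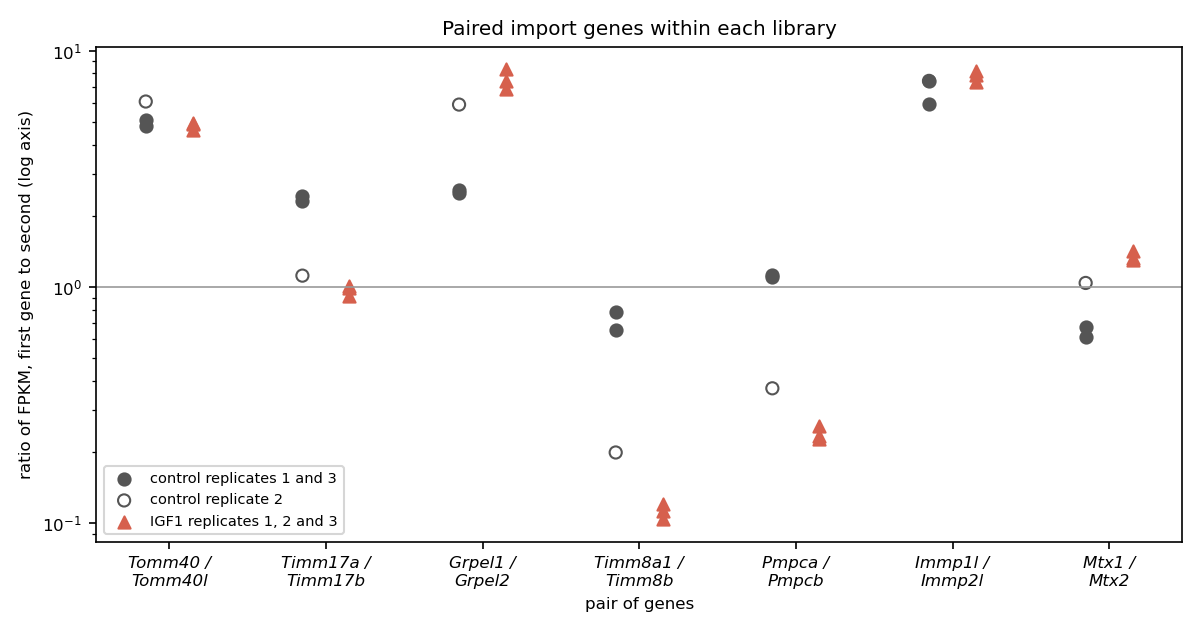
Ratio of the FPKM of paired import genes within each library (log axis, with a line at equal levels); filled circles are control replicates 1 and 3, open circles control replicate 2 and triangles the 3 IGF1 libraries. The ratio of Pmpca to Pmpcb is at 1.10 to 1.12 in control replicates 1 and 3 and at 0.226 to 0.257 in the IGF1 libraries, with control replicate 2 at 0.372.

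Control replicate 2 was nearer to the IGF1 mean than to the mean of the other controls in 27 of the 35 members tested, 77.1%, and in 77.3% of all genes tested. It was intermediate in 20 members, beyond the IGF1 mean in 12 and on the far side of the other controls in 3. In Tomm70a, Pmpca and Pam16 it was between. In Tomm5, Timm22 and Timm10 it was beyond the IGF1 mean. The 3 on the far side of the other controls were Chchd4, Timm23 and Timm50.

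Length moved with the changes. Across the 35 members the log2 fold change had a Spearman correlation of -0.40 with the counted length that the steps of the values imply, and of 0.19 with GC content. Across all genes tested these correlations were -0.22 (10426 genes) and 0.38 (10352 genes). The points are genes of the same 6 libraries and share their depth. Timm8b has an implied length of 579 bases, Pam16 of 983, Tomm6 of 1106 and Tomm7 of 1218, whereas Tomm70a has 4148 and Pmpca 3843. All genes shorter than the median member (1837 bases) had a median log2 fold change of 0.44, and those at least as long -0.30. The members in those ranges had medians of 0.08 and -0.03. The part of length in the changes of single members was tested only by removing the trends, which moved the value by over 1.5 times or changed its sign in 28 of the 35 members with transcript length and in 24 with implied length. The sign changed in 10 and in 7. With transcript length, values over 1.5 times further from 0 on the same side were those of Timm50 (-0.73), Timm23 (-0.46), Grpel1 (1.03), Timm22 (0.83), Tomm20 (0.49), Tomm22 (0.18) and Timm9 (0.72). Timm10 (-0.73) and Timm17a (0.21) changed sign and lay further from 0. Smaller moves away from 0 were those of Timm10b (1.55), Timm17b (1.09) and Timm8a1 (-0.84). By the adjusted p alone 6 members then passed with transcript length (Tomm6, Pmpca, Timm8a1, Tomm34, Timm50 and Timm10) and 8 with implied length (those and Timm23 and Chchd4), against 16.2% and 18.3% of all genes.

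**Figure D4:**
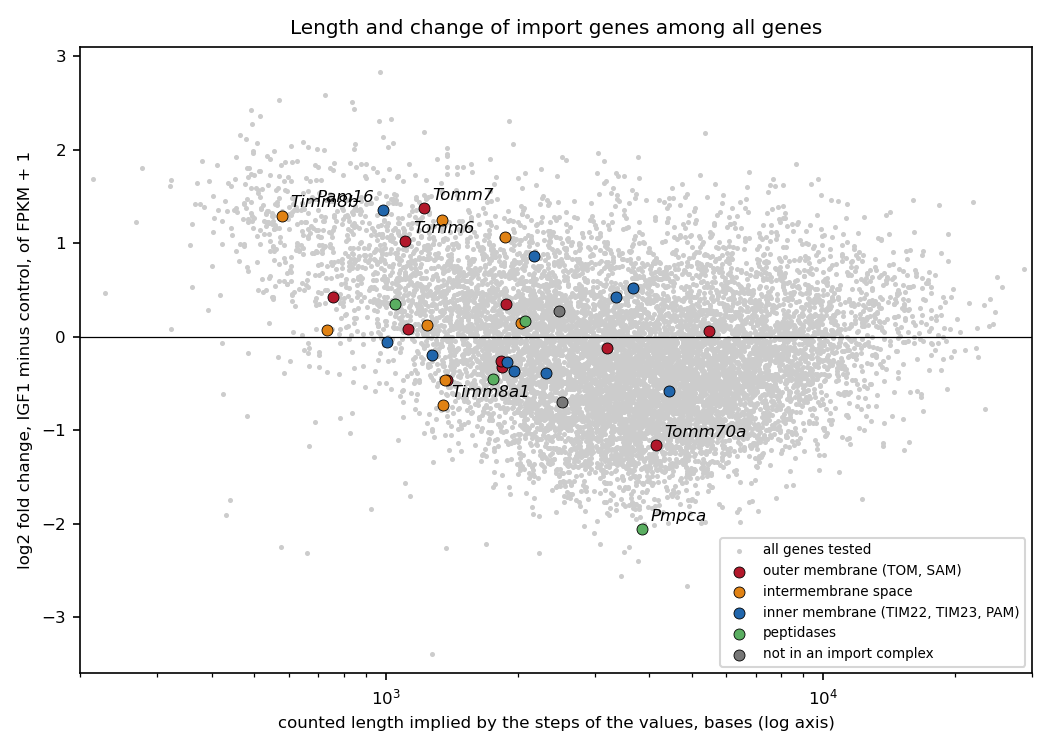
Log2 fold change (IGF1 minus control, of FPKM + 1) against the counted length implied by the steps of the values (log axis, bases) for all genes tested (grey) and for import genes coloured by compartment. Short members such as Timm8b, Pam16, Tomm7 and Tomm6 lie in the upper left and the longer Pmpca and Tomm70a in the lower right, while Timm8a1 is short and below 0.

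Other genes of the pathway were read from the same fit. Of 26 import partners, chaperones and channel genes, all were tested and 5 were called lower, 0 higher, against 4.63% and 1.98% of all genes. Their median log2 fold change was -0.48, against -0.18 for all genes, with 7 above 0 and 19 below. By the adjusted p alone 9 were lower and 0 higher, against 14.1% and 6.26% of all genes. Hspa9, the mitochondrial Hsp70 that drives the PAM motor, had 240.2, 105 and 233 FPKM across the controls, against 73.6, 74.2 and 71.8 FPKM with IGF1 (-1.29, adjusted p = 0.0471 from limma). The others called were Agk, a subunit of TIM22 (-1.84), Dnaja3, a J-protein of the matrix (-1.37), Hspd1, the matrix chaperonin Hsp60 (-1.05), and Dnaja2, a cytosolic J-protein (-1.04). Hspe1, the cochaperonin of Hspd1, was at 0.83 (adjusted p = 0.0905), so the partners of the chaperonin lay on opposite sides of 0. The largest value above 0 was that of Romo1, a small TIM23 subunit, with 106, 308 and 106 FPKM across the controls, against 407, 398 and 393 FPKM with IGF1 (1.39, adjusted p = 0.0581). Without control replicate 2, 3 partners were called higher (Romo1, Dnajc15 and Hspe1) and 9 lower, against 12.3% and 20.6% of all genes.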

How the data were processed

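HSC RNA was sequenced from stranded mRNA libraries. Per the labels and the methods, the authors trimmed reads with fastp; the submitters' processing notes name HISAT2, StringTie, GRCm38 and mm10, whereas the methods name RSEM. The deposited tables give a value for each gene symbol, taken here as FPKM; annotation and strand setting are not given in the sources used here. Values were whole multiples of 1 step per gene, and this gave whole reads for 15617 of 15640 genes (tolerance 0.02 reads), used for depth and 1 alternative.

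Genes reaching 1 FPKM in 3 or more libraries were compared by limma 3.58.1 (R 4.3.3; lmFit and a trended eBayes) as log2 of FPKM + 1, a scale that understates changes of low genes; the script was tested on simulated data. Deviations of same-numbered libraries from their group means correlated at -0.06, -0.05 and 0.01. The deviations of the controls were mostly control replicate 2 against the other controls, so this could not show whether replicates were paired. Groups came from the treatment label. Gene positions and overlaps came from GENCODE M21, promoters from RefSeq. The members, gene lists and tests were chosen with earlier results of these data known. Library values were given for called members, for the most abundant and the extreme members of each complex, for paired genes, for Tomm20 and for the 5 uncalled members that moved most without control replicate 2; values of other genes were chosen after they were seen. Alternatives covered scaling, filters, pseudocounts, length and GC content, the replicate block and each library left out.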

Additional observations from a re-analysis of the deposited data

How the results depend on the processing

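Scalings, filters, pseudocounts, length and GC trends, the replicate block and single libraries were varied, and the cause of changes was not tested. Quantile normalization and removal of length and GC trends (with transcript or implied length) left 0 members called higher, and 7 were lower with no fold threshold. With the replicate number as a block 0 of all 10449 genes were called, so 0 members in either direction, and the lowest adjusted p of a member was 0.0851 (16 members and 45.9% of all genes at an unadjusted p under 0.05); same-numbered libraries correlated at -0.06, -0.05 and 0.01. Leaving out single libraries gave 0 to 7 members called higher and 0 to 2 lower (0 of all genes except without control replicate 2), an outer membrane median of -0.038 to 0.20, an inner membrane median of -0.15 to -0.08, and outer minus inner of 0.10 to 0.28. The calls of 7 and 2 and the highest values of 0.20 and 0.28 were those without control replicate 2. The outer membrane median was 0.33 with 75th percentile scaling, 0.21 with TMM scaling and -0.12 with implied length and GC trends removed. The inner membrane median was then 0.15, 0.035 and 0.095, and it was 0.23 with transcript length and GC trends removed. The median of all genes was 0.06 and -0.04 with the 75th percentile and TMM scalings. Outer minus inner was 0.12 with quantile normalization, -0.21 with implied length and -0.17 with transcript length and GC trends removed. With Timm10b, Immp1l and Immp2l counted as inner membrane, that median was 0.17 and the difference -0.10. Single genes that changed sign were Chchd4 (0.10), Gfer (-0.0027), Mtx1 (-0.18), Mtx2 (0.18), Pmpcb (0.14), Timm10 (-0.73), Timm17a (0.21), Timm21 (0.24), Tomm40l (0.060) and Tomm5 (-0.12) with transcript length and GC trends removed. With implied length they were Grpel2 (0.015), Mtx1 (-0.12), Timm10 (-0.78), Timm21 (0.18), Tomm22 (-0.12), Tomm40l (0.23) and Tomm5 (-0.17). For the scalings, signs were read only in the 27 tested members whose library values are given. Among those, the genes that changed sign with 75th percentile scaling were Timm17a (0.22), Timm50 (0.0039), Tomm40 (0.015) and Tomm40l (0.15). With TMM scaling they were Timm17a (0.10) and Tomm40l (0.034), and with quantile normalization Tomm40l (0.19) and Tomm5 (-0.0016). Leaving out single libraries, Timm17a ranged from -0.087 to 0.00035 (without control replicate 2) and Tomm20 from -0.032 (without control replicate 3) to 0.20.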
